A study of Homo sapiens with 15 samples.

Results

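The genes described here encode the nuclear-encoded subunits of the mitochondrial respiratory chain and ATP synthase, chosen by symbol alone: the NDUF subunits of complex I, SDHA to SDHD of complex II, the UQCR subunits and CYC1 of complex III, the COX4 to COX8 subunits of complex IV, and the ATP5 subunits of complex V. The rule found 82 protein-coding genes among the 62754 gene IDs of the count table: 38 of complex I, 4 of complex II, 9 of complex III, 16 of complex IV and 15 of complex V. Of these, 77 had enough counts to be tested, among 19781 tested genes. They were measured in NCI-H69, an established line of classic small cell lung carcinoma that grows in suspension and has neuroendocrine features. The groups were DMSO (the solvent control), CS2 and FB23-2, with 3 libraries of messenger RNA each, and the labels give neither doses nor times nor any genetic change. CS2 is known as brequinar, which inhibits dihydroorotate dehydrogenase and was also reported to inhibit the RNA demethylase FTO, and FB23-2 was designed as an FTO inhibitor. The series asks what FTO does in this cancer, and its 6 samples of a second line, H82, were not analysed here.

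The respiratory chain moves electrons from NADH (complex I) and succinate (complex II) through ubiquinone to cytochrome c (complex III) and on to oxygen (complex IV), and pumps protons across the inner mitochondrial membrane. ATP synthase, complex V, lets the protons back and makes ATP. Complexes I, III, IV and V each join subunits encoded in the nucleus, described here, with subunits encoded in the mitochondrial genome, whereas complex II is wholly nuclear-encoded. Dihydroorotate dehydrogenase also sits in the inner membrane and hands its electrons to ubiquinone.

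With FB23-2, 41 of the 77 tested subunit genes (53.2%) were lower and 4 were higher than with DMSO. Over all genes tested, 26.7% were called lower and 25.4% higher in the same comparison. With CS2, 11 subunit genes were higher and 5 lower, while 24.3% of all genes were called higher and 25.3% lower. With 1 library left out, the subunit genes called with CS2 ran from 5 to 24 higher and from 4 to 8 lower. The shares of all genes called in those runs are not given here. A gene was called at an adjusted p under 0.05 in the quasi-likelihood test of edgeR, with p-values adjusted by Benjamini-Hochberg over all genes. Counting both directions, 49.7% of all genes were called for CS2 against DMSO, 52.0% for FB23-2 against DMSO and 59.6% for FB23-2 against CS2. The median log2 fold change of the members was -0.26 with FB23-2 (range -0.95 to 1.17) and 0.07 with CS2 (range -0.64 to 0.79), and the median over all genes was within 0.01 of 0 in each. Compared directly, 44 members were lower with FB23-2 than with CS2 and 6 were higher, with a median of -0.33, beside 30.0% lower and 29.7% higher among all genes. The 3 FB23-2 libraries were below all 3 DMSO libraries in 45 members (58.4%) and above them in 7, beside 30.3% and 29.5% of all genes. The CS2 libraries were above DMSO in 20 members and below in 11 (29.9% and 30.8% of all genes), and the FB23-2 libraries were above CS2 in 3 and below in 44 (31.3% and 31.6%). UQCR11, NDUFB10, NDUFC2, NDUFS5 and ATP5MG were higher with CS2 and lower with FB23-2 than with DMSO, and NDUFV3 was lower with CS2 and higher with FB23-2.

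**Figure D1:**
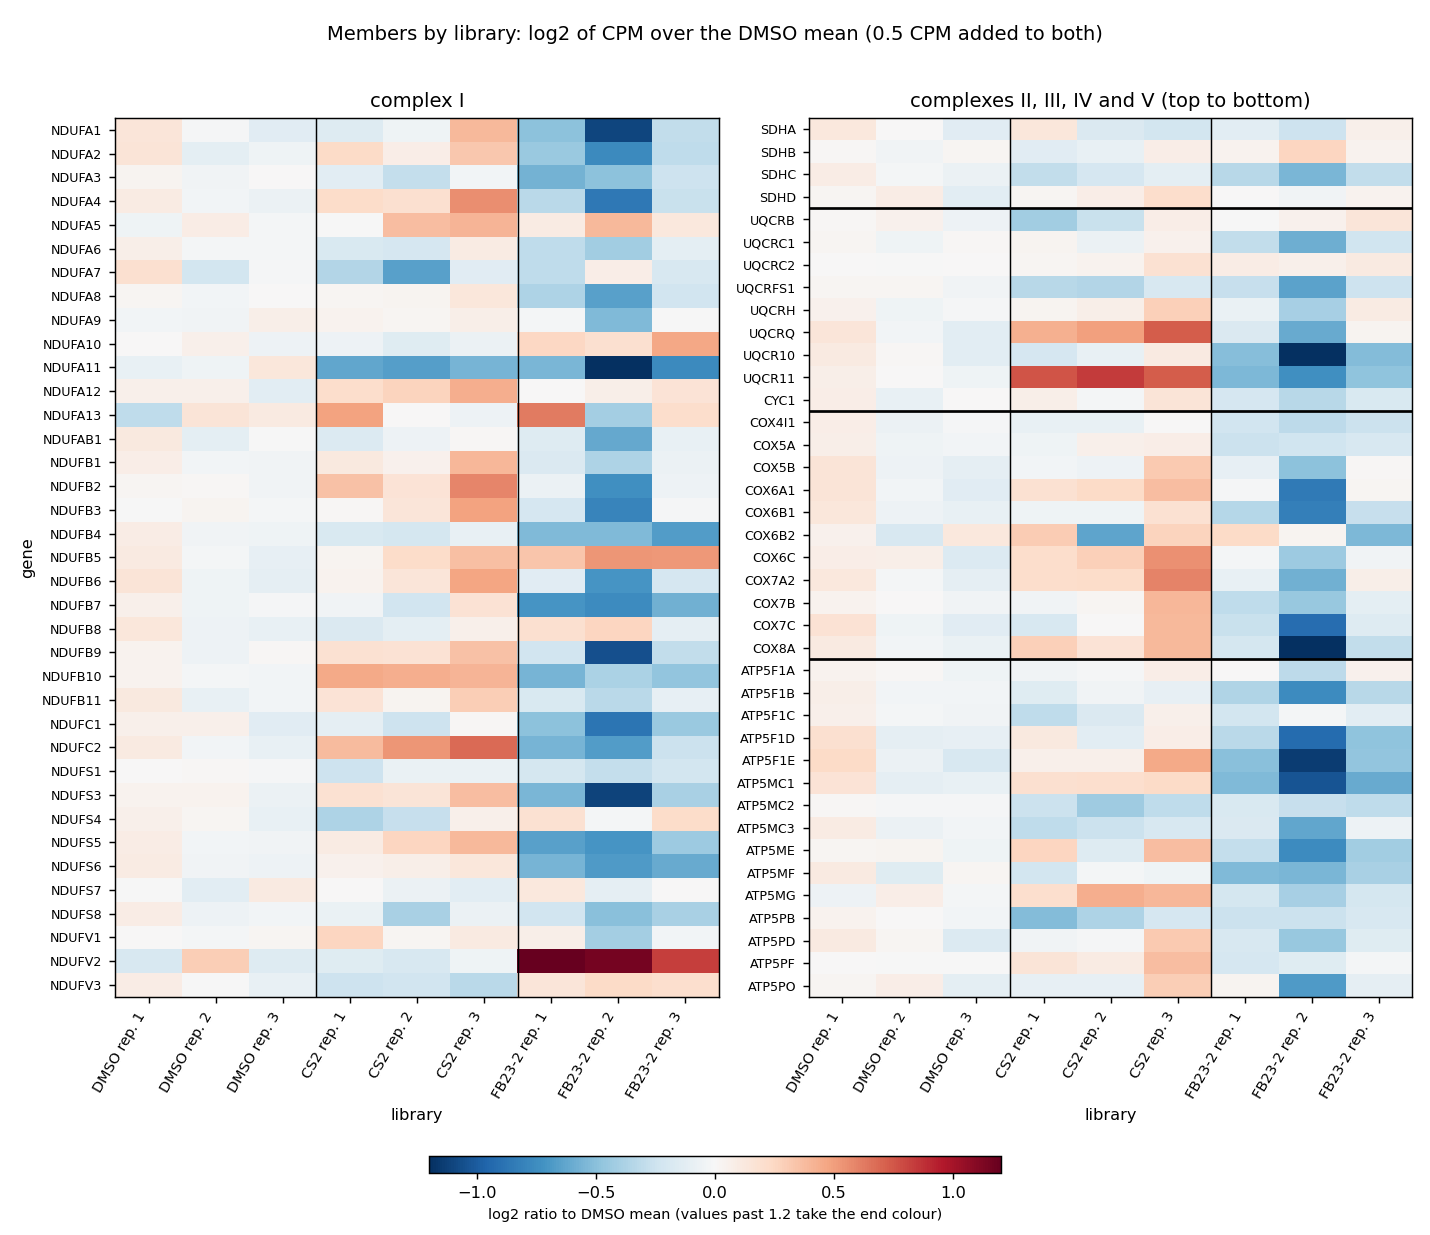
Each row is a tested member described here and each column a library, with colour for the log2 ratio of its CPM to the DMSO mean after 0.5 CPM was added to both. The columns of the 3 FB23-2 libraries are mostly blue (lower), most of all in FB23-2 replicate 2, while NDUFV2 stands out as higher in all 3.

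The DMSO libraries held 31404658 to 45022633 counts, the CS2 libraries 29916267 to 33663742 and the FB23-2 libraries 32352835 to 43957839. The labels call the libraries replicates without saying whether they came from separate cultures, so p-values measure only the spread between these libraries. All 12 neuroendocrine markers checked, among them CHGA and SYP, had a mean of at least 1 CPM in every group (CPM is the count scaled to a common library size, with totals adjusted by TMM), and their summed level was 3950 to 4200 CPM in DMSO libraries, 4060 to 4150 CPM in CS2 libraries and 3390 to 3670 CPM in FB23-2 libraries. Of 6 fibroblast markers 1 reached 1 CPM, with COL3A1 and DCN at 0 counts, and their sum was 52.7 to 54.4 CPM in DMSO, 33.1 to 39.6 CPM in CS2 and 10.5 to 15.3 CPM in FB23-2 libraries. The summed markers of blood, endothelial and squamous or airway cells stayed at or below 4.13, 2.46 and 3.16 CPM. FB23-2 replicate 2 stood apart from the other FB23-2 libraries: genes of the mitochondrial genome took 11% of its counts, beside 6.83% and 6.91% in FB23-2 replicates 1 and 3. In DMSO they took 5.18% to 5.69% and with CS2 7.3% to 9.05%.

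Promoter sequences are shown for UQCR11 and NDUFB10, which the compounds moved in opposite directions, and for NDUFB7 and NDUFB4, which fell with FB23-2, because promoters of respiratory genes are known for sites of the factors NRF1 and GABP (an ETS factor). Each is the 250 bases before the RefSeq start site (GRCh38.p14), written 5′ to 3′ on the gene's strand. Capitals mark matches on either strand to the NRF1 motif (GCGCA, any base, then GCGC), the ETS motif CCGGAAG or the YY1 motif AAGATGGC. UQCR11 (chr19:1605463-1605712, minus strand) had 2 ETS matches, starting 117 and 97 bases before the start site, and 2 NRF1 matches, at 29 and 10 bases.
UQCR11: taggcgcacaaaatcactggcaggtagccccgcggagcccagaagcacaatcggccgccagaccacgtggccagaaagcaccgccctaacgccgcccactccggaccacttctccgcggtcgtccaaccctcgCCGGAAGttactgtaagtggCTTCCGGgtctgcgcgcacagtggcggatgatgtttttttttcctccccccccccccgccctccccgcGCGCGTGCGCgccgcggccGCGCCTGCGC
NDUFB10 (chr16:1959288-1959537, plus strand) had no match to the 3 motifs in this window.
NDUFB10: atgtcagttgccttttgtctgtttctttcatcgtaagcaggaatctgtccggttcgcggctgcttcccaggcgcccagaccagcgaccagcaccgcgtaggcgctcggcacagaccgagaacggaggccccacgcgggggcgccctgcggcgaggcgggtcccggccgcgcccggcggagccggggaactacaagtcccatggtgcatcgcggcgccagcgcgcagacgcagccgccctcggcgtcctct
NDUFB7 (chr19:14572067-14572316, minus strand) had 1 ETS match, 24 bases before the start site.
NDUFB7: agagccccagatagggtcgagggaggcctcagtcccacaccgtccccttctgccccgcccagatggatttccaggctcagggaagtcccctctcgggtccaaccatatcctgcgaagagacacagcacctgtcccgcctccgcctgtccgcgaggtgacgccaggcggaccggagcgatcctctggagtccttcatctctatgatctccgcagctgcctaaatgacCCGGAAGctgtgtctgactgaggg
NDUFB4 (chr3:120596086-120596335, plus strand) had 2 NRF1 matches, at 159 and 63 bases.
NDUFB4: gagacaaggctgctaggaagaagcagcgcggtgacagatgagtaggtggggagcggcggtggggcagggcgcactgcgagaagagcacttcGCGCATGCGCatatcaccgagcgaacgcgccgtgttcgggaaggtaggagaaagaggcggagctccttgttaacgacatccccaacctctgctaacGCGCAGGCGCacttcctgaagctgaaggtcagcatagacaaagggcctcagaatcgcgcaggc

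RefSeq promoters were on hand for 66 of the 82 members. Of these, 14 (21.2%) held the NRF1 motif and 16 (24.2%) the ETS motif, whereas 7.65% and 11.8% of 15843 protein-coding promoters of the same length did. The YY1 motif was in 1 member (1.52%, and 1.39% of all promoters). The GC box GGGCGG was in 54.5% of members and 56.0% of all promoters, the cyclic AMP response element TGACGTCA in 6.06% and 2.32%, the ATF4 composite motif TGATGNAA in 1.52% and 2.21%, and TATAAA in 10.6% and 9.23%. Both strands were searched, each motif on its own, so matches of different motifs may overlap. Among the 30 members with a promoter that were lower with FB23-2, 7 (23.3%) held the NRF1 motif and 7 (23.3%) the ETS motif. These matches describe letters in the window, and binding was not tested.

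Levels per length differed widely between members in the DMSO libraries. In RPKM, CPM per 1000 bases of the reference transcript, 67 of the 77 tested members had a mean of at least 10, with a median of 85.4. ATP5F1B, the catalytic beta subunit of ATP synthase, was the highest at 853 ± 36 RPKM (SD, n = 3). COX4I1, the largest nuclear-encoded subunit of complex IV, followed at 339 ± 17 and COX7C at 332 ± 39, which do not differ beyond their spread. Median levels were 177 RPKM in complex IV, 126 in complex V, 95.7 in complex III, 72.2 in complex I and 21.1 in complex II. The 10 tested members below 10 RPKM were COX6B2, NDUFA7, NDUFA9, NDUFA13, NDUFV2, SDHA, NDUFB8, SDHC, NDUFC2 and ATP5ME. RPKM divides by the length of the reference transcript, and those of SDHC and NDUFA9 are among the longest of the 82 members. SDHC was at 102, 94.5 and 91.3 CPM in DMSO replicates 1 to 3, so its low RPKM does not mean few counts. That length also enters the complex II median, and which transcripts these cells use was not tested.

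Several of the values below 10 RPKM fall on genes whose transcripts overlap another annotated gene. NDUFV2, a core iron-sulfur subunit, was at 4.65 ± 1.0 RPKM beside 139 ± 2.6 for NDUFV1, its partner in the NADH-binding module. Other annotated genes, foremost 1 on the same strand, cover 82.9% of the bases of the NDUFV2 reference transcript, 78.7% of NDUFA7 and 71.7% of NDUFB8. The same held for 70.3% of ATP5PO, 67.0% of NDUFA11, 44.1% of NDUFA13 and 31.2% of UQCR11, and for ATP5ME 49.9% is covered, foremost by a gene on the opposite strand. The sources used here do not say how the authors counted reads in such overlaps, so the levels of these genes are uncertain and the part of the overlap in their changes was not tested. In all, 25 members shared more than 20% of their exon bases, reference transcript or 50-base windows with other genes. The others were NDUFA1, NDUFA2, NDUFB2, NDUFB9, NDUFB11, NDUFS3, NDUFS7, SDHD, UQCRQ, COX6A1, COX6A2, COX6B2, COX8A, ATP5F1E, ATP5MF, ATP5MG and ATP5PF. Without all 25, 53 tested members remained, of which 31 were lower and 3 higher with FB23-2, and 6 higher and 4 lower with CS2.

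The tissue isoforms of complex IV had few or no counts. COX6A2, the heart and muscle form, had no count in any of the 9 libraries, where 3 counts would be 0.0666 to 0.101 CPM. COX4I2, the oxygen-sensitive form known from lung, had 4 counts over all 9 libraries, COX7B2 had 4, the muscle form COX7A1 had 33, and the testis form COX8C had 53, of which 21 were in FB23-2 replicate 2. None of these 5 was tested. COX6B2, another testis form, had 221 counts in all and passed neither comparison with DMSO (log2 fold change 0.06 ± 0.43 SE with CS2 and -0.11 ± 0.43 with FB23-2).

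In complex I, which takes electrons from NADH, 20 of 38 members were lower and 4 higher with FB23-2 (median -0.28), and 6 were higher and 2 lower with CS2 (median 0.08). Of all genes, 26.7% were lower and 25.4% higher with FB23-2, and 24.3% higher and 25.3% lower with CS2. These shares also stand beside the counts of the other complexes. NDUFB10, an accessory subunit of the membrane arm, was at 138, 132 and 131 CPM in DMSO replicates 1 to 3. It was at 184, 181 and 178 CPM with CS2 and at 90.9, 103 and 96.1 CPM with FB23-2. The 3 groups did not overlap, with CS2 highest and FB23-2 lowest. The log2 fold change was 0.44 ± 0.07 with CS2 (1.36-fold, adjusted p = 4.4e-05) and -0.47 ± 0.07 with FB23-2 (1.38-fold lower, adjusted p = 2.35e-05), both from edgeR.

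NDUFC2, another accessory subunit of the membrane arm, was at 19.8, 17.9 and 17.2 CPM with DMSO, 23.9, 26.7 and 29.7 with CS2, and 12.3, 11.3 and 15.2 with FB23-2. Again no library of a group fell within another group, and the changes were 0.54 ± 0.12 with CS2 and -0.50 ± 0.12 with FB23-2 on the log2 scale (edgeR adjusted p = 0.000812 and 0.00175). NDUFS5, an accessory subunit on the outer face of the membrane arm, was at 137, 126 and 125 CPM with DMSO, 138, 154 and 169 with CS2, and 82.1, 78.8 and 95.1 with FB23-2. Its fall with FB23-2 was clear of the spread (-0.60 ± 0.09, edgeR adjusted p = 1.34e-05), while CS2 replicate 1 lay just above DMSO replicate 1. The rise with CS2 was 0.25 ± 0.09 (edgeR adjusted p = 0.0232) and lost the call without DMSO replicate 2 (0.23), DMSO replicate 3 (0.23), CS2 replicate 2 (0.25) or CS2 replicate 3 (0.18).

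NDUFB2, also of the membrane arm, was higher with CS2 by 0.38 ± 0.15, a call that was lost when any DMSO library, CS2 replicate 1 or CS2 replicate 3 was left out. Its change was then 0.40 without DMSO replicate 1, 0.39 without DMSO replicate 2, 0.36 without DMSO replicate 3, 0.40 without CS2 replicate 1 and 0.27 without CS2 replicate 3. The call was also lost with library size alone (0.39), with a minimum mean of 1 CPM (0.37) or once GC content and gene span were corrected for (0.33).

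NDUFV3, an accessory subunit of the NADH-binding module, moved the other way. It was at 85.5, 80.1 and 75.6 CPM with DMSO, 67.7, 68.4 and 64.0 with CS2, and 88.9, 94.1 and 92.7 with FB23-2, so CS2 was lowest and FB23-2 highest with no overlap. The log2 fold changes were -0.27 ± 0.08 with CS2 and 0.19 ± 0.08 with FB23-2 (edgeR adjusted p = 0.00722 and 0.0431). The call with FB23-2 was lost without DMSO replicate 2 (0.19), DMSO replicate 3 (0.15), CS2 replicate 2 (0.19), FB23-2 replicate 2 (0.18) or FB23-2 replicate 3 (0.20), with no filter on low counts (0.18) and with the transcript length correction (0.16), and the direct difference between the compounds (0.46 ± 0.08) was called in each of these.

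**Figure D2:**
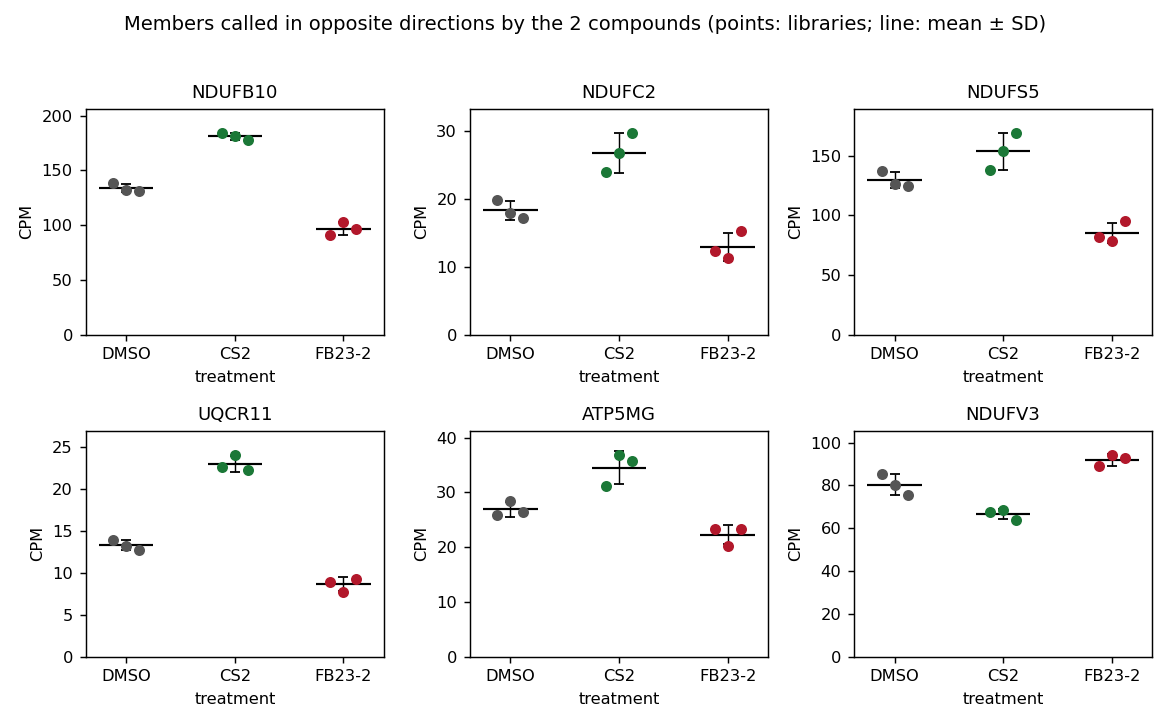
CPM of the 6 members called in opposite directions, by treatment, with points for libraries and lines for the mean ± SD. In each panel the libraries of the 3 groups are apart: CS2 is highest and FB23-2 lowest in 5 panels, and NDUFV3 shows the reverse.

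NDUFV2 rose the most with FB23-2 among all tested members, from 3.74, 5.41 and 3.84 CPM with DMSO to 10.8, 10.2 and 8.08 CPM. With CS2 it was at 3.86, 3.72 and 4.16 CPM, overlapping the DMSO libraries. Its log2 fold change with FB23-2 was 1.17 ± 0.17 (2.25-fold, edgeR adjusted p = 7.8e-06), on a gene whose reads are open to the overlap given above. NDUFB5, of the membrane arm, rose from 24.4, 22.3 and 21.1 to 28.6, 32.8 and 32.7 CPM (0.47 ± 0.11, edgeR adjusted p = 0.000875), and NDUFA10, an accessory subunit related to nucleoside kinases, rose by 0.31 ± 0.08 (edgeR adjusted p = 0.00441). In both genes all FB23-2 libraries were above all DMSO libraries.

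The largest falls in complex I with FB23-2 were of NDUFA11, NDUFB7 and NDUFS3. NDUFA11, a membrane arm subunit, was lower with both compounds: 18.9, 19.4 and 22.2 CPM with DMSO, 12.9, 12.5 and 13.5 with CS2, and 13.6, 6.40 and 11.6 with FB23-2. Both treated groups lay below DMSO and overlapped each other, and the log2 fold changes were -0.64 ± 0.19 with CS2 and -0.95 ± 0.19 with FB23-2 (edgeR adjusted p = 0.0109 and 0.000648). NDUFB7, on the outer face of the membrane arm, fell from 96.2, 88.8 and 91.2 CPM with DMSO to 56.3, 54.5 and 61.6 with FB23-2 (-0.68 ± 0.09, edgeR adjusted p = 5.61e-06). With CS2 it was at 89.1, 78.5 and 104 CPM, on both sides of the DMSO range (-0.03 ± 0.09). NDUFB4 was at 51.6, 47.1 and 46.6 CPM with DMSO and at 33.4, 33.3 and 30.2 with FB23-2, a change of -0.58 ± 0.09 (edgeR adjusted p = 1.46e-05).

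Core subunits, among them those that carry the flavin and the iron-sulfur clusters, were not all called in 1 direction with FB23-2. NDUFS3 fell from 111, 111 and 103 CPM to 73.6, 49.7 and 82.2 CPM (-0.66 ± 0.14, edgeR adjusted p = 0.00091), with FB23-2 replicate 2 the lowest of the 9 libraries. NDUFS1, the largest iron-sulfur subunit, was lower by a small step, from 133, 134 and 132 to 115, 109 and 114 CPM (-0.24 ± 0.07). NDUFS8, another iron-sulfur subunit, was lower (-0.37 ± 0.10), while NDUFV1 (-0.11 ± 0.10) and NDUFS7 (0.01 ± 0.11) did not pass and NDUFV2, above, was higher. With CS2 the changes of NDUFS1 (-0.13 ± 0.07), NDUFS3 (0.24 ± 0.14), NDUFS8 (-0.17 ± 0.10), NDUFV1 (0.13 ± 0.10) and NDUFV2 (-0.14 ± 0.18) did not pass. Of the 30 accessory subunits, sorted by role after their values had been seen, 15 were lower and 3 higher with FB23-2. NDUFA4, listed with complex I by its symbol but known as a subunit of complex IV, was lower with FB23-2 (-0.46 ± 0.14) and not called with CS2 (0.33 ± 0.14). Of 18 alternatives, scaling by library size alone ended its call with FB23-2 (-0.45, edgeR adjusted p = 0.0546), and 6 called it higher with CS2.

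In complex II, which oxidises succinate, 1 of 4 members was lower with FB23-2 (median -0.05) and none was called with CS2 (median -0.06). With FB23-2 SDHC, a membrane anchor, fell from 102, 94.5 and 91.3 CPM to 76.2, 65.6 and 78.1 CPM (-0.39 ± 0.09, edgeR adjusted p = 0.00079), below all DMSO libraries. The flavoprotein SDHA (-0.10 ± 0.13), the iron-sulfur subunit SDHB (0.12 ± 0.09) and the anchor SDHD (0.00 ± 0.08) did not pass. The changes with CS2 ran from -0.20 to 0.11, and none of the 4 was called between the compounds.

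In complex III, which passes electrons from ubiquinone to cytochrome c, 5 of 9 members were lower with FB23-2 (median -0.24), and with CS2 2 were higher and 1 lower (median 0.07). With CS2 those were 22.2% and 11.1% of the 9, beside 24.3% higher and 25.3% lower among all genes. UQCR11, a small accessory subunit whose promoter is shown above, had the largest rise of any member with CS2. It was at 13.9, 13.2 and 12.7 CPM with DMSO, 22.6, 24.0 and 22.2 with CS2, and 8.94, 7.74 and 9.30 with FB23-2. The groups were far apart, and the log2 fold changes were 0.79 ± 0.11 with CS2 (1.73-fold, edgeR adjusted p = 5.32e-06) and -0.61 ± 0.11 with FB23-2 (edgeR adjusted p = 0.000127). Between the compounds the difference was -1.41 ± 0.11, 2.65-fold (edgeR adjusted p = 2.12e-09).

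UQCRQ, another small subunit, was at 78.2, 69 and 64.9 CPM with DMSO, 94.9, 99.6 and 117 with CS2, and 62.5, 46.4 and 72.2 with FB23-2. All CS2 libraries were above all others (0.55 ± 0.13, edgeR adjusted p = 0.00204), while FB23-2 and DMSO overlapped (-0.23 ± 0.13, not called). UQCR10 was the complex III member with the largest fall with FB23-2, from 39.1, 36.6 and 33.2 to 25.4, 15.4 and 25.2 CPM (-0.72 ± 0.15, edgeR adjusted p = 0.000651), and was not called with CS2 (-0.06 ± 0.15). UQCRFS1, the Rieske iron-sulfur protein, was lower with both compounds: 108, 108 and 103 CPM with DMSO, 84.0, 82.9 and 92.6 with CS2, and 87.5, 67.9 and 89.4 with FB23-2. Its changes were -0.29 ± 0.09 with CS2, a call lost without CS2 replicate 2 (-0.26), and -0.38 ± 0.09 with FB23-2. CYC1, cytochrome c1, fell by 0.24 on the log2 scale with FB23-2, a call lost without DMSO replicate 1 (-0.19) and turned to 0.03 when libraries were corrected for GC content and gene span. UQCRB was higher with FB23-2 than with CS2 (0.25 ± 0.10) but in neither comparison with DMSO. That call did not hold without DMSO replicate 1 (0.25), DMSO replicate 2 (0.25), DMSO replicate 3 (0.25), CS2 replicate 1 (0.15), CS2 replicate 2 (0.21) or FB23-2 replicate 3 (0.22). Nor did it hold with the corrections for GC content and span (0.10) or transcript length (0.08) or in DESeq2 (0.25).

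In complex IV, cytochrome c oxidase, all 11 tested members had values below 0 with FB23-2. Of these, 4 passed (36.4%, beside 26.7% of all genes called lower): COX6B1, COX7B, COX4I1 and COX5A (median of the 11 -0.23). With each library corrected for transcript length that median was -0.06, and without FB23-2 replicate 2 COX6A1 was at 0.01. COX6B1, which faces the intermembrane space, fell from 205, 179 and 176 CPM to 147, 106 and 154 CPM (-0.46 ± 0.11, edgeR adjusted p = 0.00275), with all FB23-2 libraries below all DMSO libraries. COX4I1 fell from 253, 229 and 238 to 204, 193 and 201 CPM (-0.27 ± 0.07), a call lost when libraries were corrected for transcript length (-0.11). COX5A (-0.23 ± 0.07) lost its call under that correction (-0.03) and without DMSO replicate 1 (-0.19) or FB23-2 replicate 1 (-0.20). COX7B (-0.29 ± 0.10) lost it without DMSO replicate 1 (-0.27), DMSO replicate 2 (-0.28), FB23-2 replicate 1 (-0.26) or FB23-2 replicate 2 (-0.20), and with library size alone (-0.28).

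With CS2 only COX6C passed in complex IV. It was at 53.4, 53.0 and 44.9 CPM with DMSO, 58.6, 61.7 and 74.0 with CS2, and 49.6, 37.1 and 48.9 with FB23-2. All CS2 libraries were above all DMSO libraries (0.36 ± 0.11, edgeR adjusted p = 0.0127), and the call was lost without DMSO replicate 3 (0.28) or CS2 replicate 3 (0.26), or once GC content and gene span were corrected for (0.27). Between the compounds 7 complex IV members were lower with FB23-2 and none was higher, beside 30.0% lower and 29.7% higher among all genes. The median of complex IV was -0.49, or -0.29 without FB23-2 replicate 2 and -0.31 without CS2 replicate 3. The largest differences were of COX8A (-0.80 ± 0.23), COX7A2 (-0.52 ± 0.15) and COX6C (-0.52 ± 0.11). The call of COX8A was lost without CS2 replicate 1 (-0.80) and with no filter on low counts (-0.81), and FB23-2 replicate 2 had 38.2 CPM of it beside 77.5 and 73.1 CPM in FB23-2 replicates 1 and 3. COX6A1 was called in none of the 3 comparisons (0.26 ± 0.20 with CS2 and -0.23 ± 0.20 with FB23-2). Between the compounds it was at -0.49 ± 0.20 (edgeR adjusted p = 0.0518), with all FB23-2 libraries below all CS2 libraries. Of 18 alternatives, 9 called COX6A1 lower in that comparison.

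In complex V, ATP synthase, all 15 members had values below 0 with FB23-2 and 11 passed (median -0.27), while with CS2 2 were higher and 2 lower (median 0.03). ATP5F1B fell from 1650, 1530 and 1530 CPM to 1220, 933 and 1250 CPM (-0.46 ± 0.09, edgeR adjusted p = 0.000247), with no overlap. With CS2 it was at 1420, 1520 and 1470 CPM (-0.10 ± 0.09, not called). ATP5F1A, the alpha subunit that forms the head with it, did not pass with FB23-2 (-0.08 ± 0.08). ATP5F1E, the epsilon subunit of the central stalk, fell from 113, 92.0 and 84.6 to 68.0, 43.7 and 69.5 CPM (-0.68 ± 0.19, edgeR adjusted p = 0.0123).

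ATP5MC1, ATP5MC2 and ATP5MC3 encode the same mature c subunit, the ring through which protons pass. The changes of ATP5MC2 and ATP5MC3 were close to each other, while those of ATP5MC1 were not, and no difference between the genes was tested. In DMSO they were at 139 ± 15, 112 ± 1.5 and 141 ± 9.0 CPM (SD, n = 3). Per length, ATP5MC1 was highest in DMSO at 232 ± 25 RPKM, then ATP5MC3 at 167 ± 11 and ATP5MC2 at 57.2 ± 0.78. That order follows the reference transcripts, of 598 bases for ATP5MC1, 842 for ATP5MC3 and 1950 for ATP5MC2. ATP5MC1 was at 156, 129 and 131 CPM with DMSO, 159, 160 and 163 with CS2, and 96.3, 67.4 and 91.1 with FB23-2. Its fall with FB23-2 was -0.71 ± 0.11 (1.63-fold, edgeR adjusted p = 1.48e-05), and with CS2 it was at 0.21 ± 0.11, not called. ATP5MC2 was lower with both compounds, at 113, 111 and 111 CPM with DMSO, 93.7, 83.0 and 90.6 with CS2, and 98.8, 92.5 and 90.8 with FB23-2. Its change was -0.32 ± 0.08 with CS2 (edgeR adjusted p = 0.00142) and -0.25 ± 0.08 with FB23-2, the latter lost without FB23-2 replicate 3 (-0.21). ATP5MC3 was lower with FB23-2 (-0.27 ± 0.11), but not without DMSO replicate 1 (-0.22), DMSO replicate 3 (-0.28), CS2 replicate 2 (-0.27), CS2 replicate 3 (-0.26) or FB23-2 replicate 2 (-0.12), with library size alone (-0.26), with the transcript length correction (-0.15) or in DESeq2 (-0.26). Its change with CS2 was -0.26 ± 0.11, not called but at the threshold (edgeR adjusted p = 0.05 after rounding). All CS2 libraries of ATP5MC3 were below all DMSO libraries, and 8 of 18 alternatives called it lower with CS2. Between the compounds ATP5MC1 differed by -0.92 ± 0.11 (edgeR adjusted p = 4.09e-07), ATP5MC2 by 0.08 ± 0.08 and ATP5MC3 by -0.01 ± 0.11, the latter 2 not called.

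Among the stalk and membrane subunits, ATP5MG, subunit g, was at 25.9, 28.5 and 26.5 CPM with DMSO, 31.1, 36.8 and 35.7 with CS2, and 23.3, 20.3 and 23.3 with FB23-2. The 3 groups did not overlap, and the changes were 0.35 ± 0.10 with CS2 (edgeR adjusted p = 0.00538) and -0.28 ± 0.10 with FB23-2 (edgeR adjusted p = 0.0249). The FB23-2 call did not hold without DMSO replicate 2 (-0.24), DMSO replicate 3 (-0.29) or FB23-2 replicate 2 (-0.21). ATP5PB, the b subunit of the peripheral stalk, was lower with both: 132, 128 and 125 CPM with DMSO, 89.1, 99.2 and 111 with CS2, and 107, 107 and 112 with FB23-2. Its changes were -0.37 ± 0.08 with CS2 (edgeR adjusted p = 0.000884) and -0.24 ± 0.08 with FB23-2, the latter lost without DMSO replicate 1 (-0.22) or FB23-2 replicate 1 (-0.22). ATP5ME, subunit e, fell with FB23-2 (-0.56 ± 0.20) from a low level of 3.42 to 3.66 CPM to 1.92 to 2.83 CPM. That call did not hold without DMSO replicate 1 (-0.55), DMSO replicate 2 (-0.54) or FB23-2 replicate 2 (-0.41), or with the corrections for GC content and span (-0.39) or transcript length (-0.29). ATP5PF, of the peripheral stalk, was higher with CS2 by 0.21 ± 0.09, a call lost without DMSO replicate 1 (0.22), DMSO replicate 2 (0.21), DMSO replicate 3 (0.21) or CS2 replicate 3 (0.13). It was also lost without a filter on low counts (0.21), with library size alone (0.21), a minimum mean of 1 CPM (0.20) and the GC content and span correction (0.13).

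**Figure D3:**
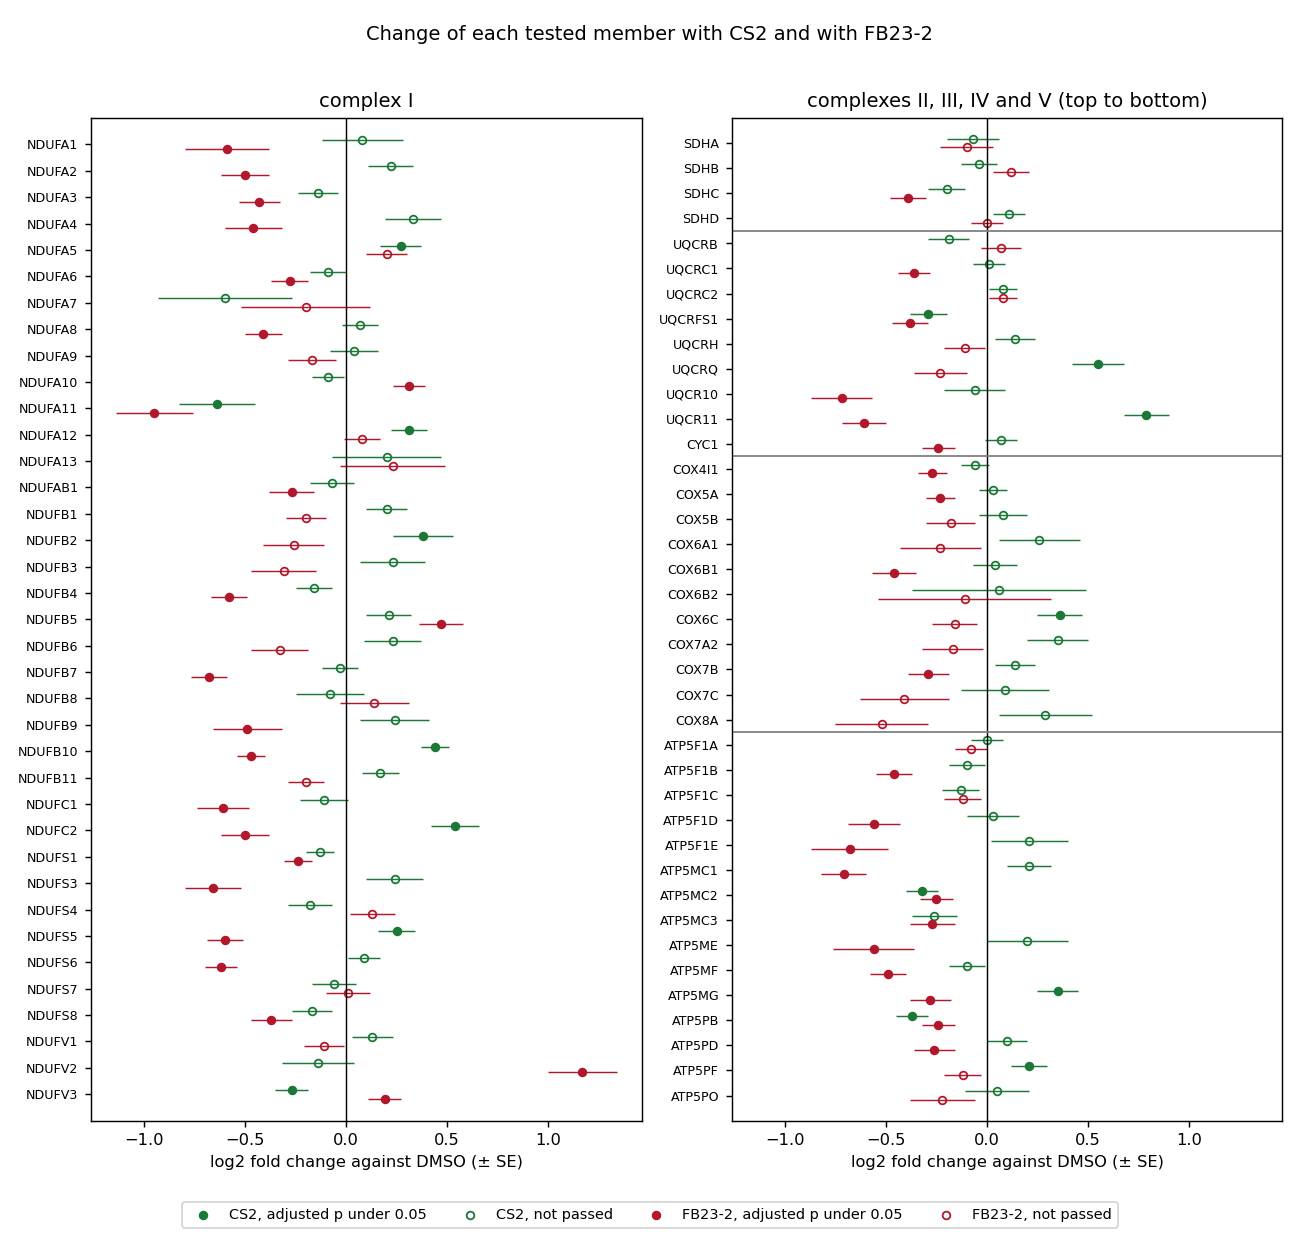
Log2 fold change against DMSO (± SE) of the tested members described here, with CS2 in green and FB23-2 in red, filled where the adjusted p was under 0.05. The red points lie mostly left of 0 in complexes I, III, IV and V, with NDUFV2 at 1.17 the exception farthest to the right, and the green points lie on both sides.

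Both comparisons share the DMSO libraries, so their values are set side by side and no likeness between them was tested. The spread of the FB23-2 group was uneven. FB23-2 replicate 2 was the lowest FB23-2 library in 60 of the 77 members (77.9%), while it was the lowest in 36.4% of 14014 tested protein-coding genes. Its median log2 deviation from the other FB23-2 libraries was -0.25 over the members and 0.02 over those genes. Without it, 34 members were lower and 3 higher with FB23-2, with a median of -0.20. The share of all genes called without that library is not given here.

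The counts of calls with CS2 depended on single libraries and settings. Without FB23-2 replicate 2, which enters through the shared estimate of the spread, the comparison of CS2 with DMSO called 24 members higher and 7 lower. Without DMSO replicate 3 it called 5 higher and 5 lower, and without CS2 replicate 3 6 higher and 8 lower. Corrected for GC content and gene span, 9 were higher and 17 lower, and corrected for transcript length 15 and 11. With the replicate number as a block, 13 were higher and 8 lower. The share of all genes called in these runs is not given here, so the counts are not read as particular to the members. The 9 of 16 calls that held in every alternative run were the rises of UQCR11, UQCRQ, NDUFB10, NDUFC2 and ATP5MG and the falls of NDUFA11, NDUFV3, ATP5MC2 and ATP5PB. With FB23-2, 26 of 45 calls held in every alternative, the rises of NDUFV2, NDUFB5 and NDUFA10 among them.

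As a share of all counts, the 82 members took 0.98%, 0.926% and 0.91% of the DMSO libraries, 0.935%, 0.928% and 1.05% of the CS2 libraries, and 0.842%, 0.641% and 0.859% of the FB23-2 libraries. All FB23-2 libraries lay below all others, and CS2 overlapped DMSO. The mean was 0.938% ± 0.037 (SD, n = 3) with DMSO, 0.971% ± 0.07 with CS2 and 0.78% ± 0.12 with FB23-2. An exact two-sided permutation test gave p = 0.5 for CS2 and p = 0.1 for FB23-2 against DMSO, and 0.1 is the smallest p that 3 against 3 libraries allow. By complex, the FB23-2 libraries were below all DMSO libraries in complexes I, III, IV and V (each exact p = 0.1) and overlapped them in complex II (exact p = 0.2). ATP synthase held the largest share, 0.372% ± 0.015 with DMSO, 0.36% ± 0.016 with CS2 and 0.302% ± 0.051 with FB23-2. Without FB23-2 replicate 2, the difference between FB23-2 and DMSO went from -0.158 to -0.088 percentage points for all members, from -0.0486 to -0.0293 for complex I and from -0.00193 to -0.0011 for complex II. It went from -0.0108 to -0.0037 for complex III, from -0.0259 to -0.0127 for complex IV and from -0.0705 to -0.0411 for complex V. In bulk RNA, fewer cells with a transcript and less of it per cell cannot be told apart.

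**Figure D4:**
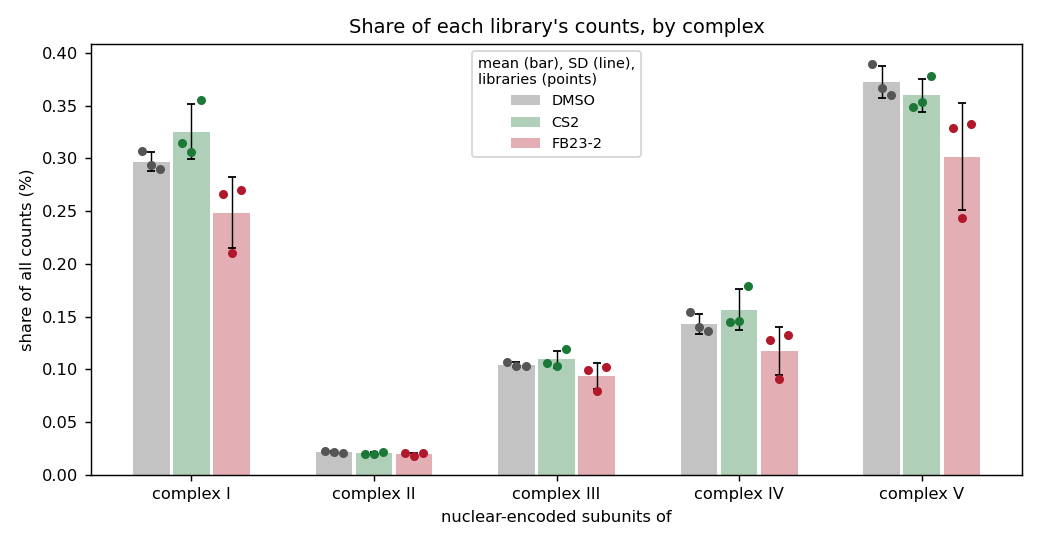
Share of each library's counts held by the subunits of each complex, with bars for the mean, lines for the SD and points for the libraries, on an axis that starts at 0. The FB23-2 points lie below the DMSO points in complexes I, III, IV and V, and FB23-2 replicate 2 is the lowest point in each complex.

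Many of these subunits are small proteins with short transcripts. Of the 44 tested members with a reference transcript of up to 1000 bases, 56.8% were lower with FB23-2 (median -0.34), beside 31.7% of 780 other protein-coding genes of that length (median -0.14). Of the 33 longer members 48.5% were lower (median -0.23), beside 28.9% of 13157 other genes (median 0.01). With each library corrected for transcript length, 34 members were lower and 5 higher with FB23-2, and the share of all genes called in that run is not given here. With CS2 the short members had a median of 0.09 and other short genes 0.08.

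**Figure D5:**
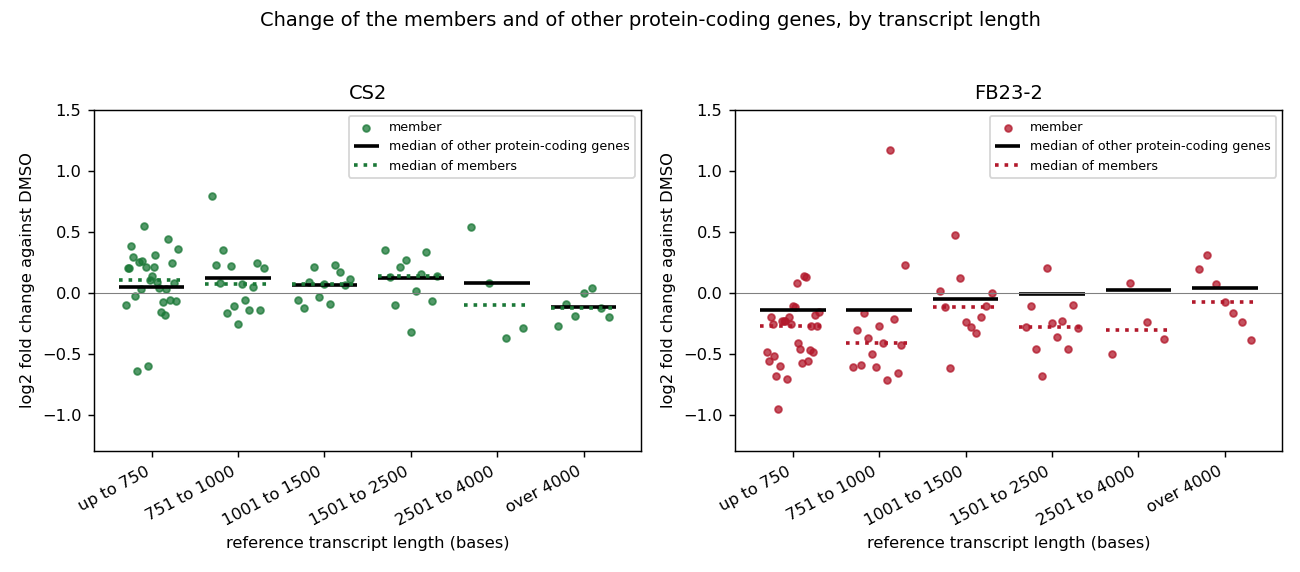
Log2 fold change against DMSO of each tested member, grouped by the length of its reference transcript, with dotted lines for the median of the members and black lines for the median of other protein-coding genes in the same length group. With FB23-2 the dotted line lies below the black line in every length group, and with CS2 the lines lie on both sides of each other.

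The partners of these subunits are counted beside all genes tested. Of all genes, 24.3% were called higher and 25.3% lower with CS2, and 25.4% higher and 26.7% lower with FB23-2. Of the 13 mRNAs of the mitochondrial genome, 7 were lower and 2 higher with CS2, and 2 were lower and 5 higher with FB23-2. MT-CYB, the mitochondrially encoded core of complex III, was lower with both (-2.09 ± 0.10 and -1.02 ± 0.10), MT-CO2 was higher with both (0.84 ± 0.21 and 1.04 ± 0.21), and MT-ND4 of complex I was higher with FB23-2 (0.88 ± 0.21). Together these mRNAs held 4.47% ± 0.18 (SD, n = 3) of the DMSO counts, 4.11% ± 0.36 of the CS2 counts and 5.81% ± 1.5 of the FB23-2 counts, where replicate 2 stood at 7.56% beside 4.91% and 4.96%.

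Assembly factors, which build the complexes but are no part of them, were called in both directions, as were all genes tested. Those shares were 24.3% higher and 25.3% lower with CS2, and 25.4% higher and 26.7% lower with FB23-2. Of 18 for complex I, 6 were higher and 6 lower with CS2, and 3 higher and 3 lower with FB23-2. NUBPL, which inserts iron-sulfur clusters into complex I, fell from 9.69 to 2.21 CPM with CS2 (-2.13 ± 0.15, edgeR adjusted p = 8.4e-10). Of 13 for complexes II and III, 6 were higher and 1 lower with CS2, and 7 higher and none lower with FB23-2, among them UQCC2 (0.80 ± 0.09) and SDHAF4 (0.84 ± 0.13). Of 26 tested for complex IV, 7 were higher and 6 lower with CS2, and 5 higher and 8 lower with FB23-2, near the shares of all genes. Among these HIGD2A (-1.28 ± 0.11) and COX18 (-1.14 ± 0.12) fell with CS2, and COX16 (-1.09 ± 0.17) fell with FB23-2. Of 10 assembly and accessory genes of complex V, 4 were higher and none lower with CS2, and 3 higher and 4 lower with FB23-2. ATP5IF1, the inhibitor of ATP hydrolysis by the synthase, rose with CS2 from 40.6 to 76.9 CPM (0.92 ± 0.09) and fell with FB23-2 to 25.3 CPM (-0.68 ± 0.10).

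The next 3 lists also stand beside the shares of all genes: 24.3% higher and 25.3% lower with CS2, and 25.4% and 26.7% with FB23-2. Of 21 tested genes of ubiquinone synthesis, cytochrome c and dehydrogenases that feed ubiquinone, 3 were higher and 8 lower with CS2, and 5 higher and 4 lower with FB23-2. COQ10A rose with CS2 from 27.8 to 97 CPM (1.81 ± 0.09) and PDSS2, which makes the ubiquinone tail, fell from 26.5 to 8.94 CPM (-1.57 ± 0.12). Of 14 genes of the tricarboxylic acid cycle, which supplies NADH and succinate, 2 were higher and 2 lower with CS2, and 1 higher and 5 lower with FB23-2. Among them SUCLG2 was lower with both compounds (-0.84 ± 0.15 and -1.04 ± 0.15). Of 10 transcriptional regulators of respiratory genes, 1 was higher and 5 lower with CS2, and 2 higher and 4 lower with FB23-2. The coactivator PPARGC1A rose from 3.93 CPM to 9.09 CPM with CS2 (1.22 ± 0.17) and to 17.3 CPM with FB23-2 (2.14 ± 0.16). Its relative PPARGC1B fell with CS2 (-1.32 ± 0.08), and NRF1 was lower with CS2 (-0.55 ± 0.09).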

How the data were processed

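Per the labels' protocols, TRIzol-isolated RNA was made into libraries with a Hieff NGS Ultima Dual-mode kit for mRNA. Values are raw counts of reads per gene as deposited by the authors, and the submitters' processing notes name hg38. Which aligner, counter, annotation and strand setting were used is not given in the sources used here. Columns labelled FB23 were matched by name to FB23-2. The table has 62754 IDs, 42343 with a symbol, and all 82 members matched.

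The counts of all 9 H69 libraries were fitted together in R 4.3.3 with edgeR 4.0.16 (filterByExpr by group with minimum count 10 and total 15, TMM, robust quasi-likelihood, no covariate). The biological coefficient of variation was 0.101. Benjamini-Hochberg adjustment ran over 19781 genes. SE is the log2 fold change over the square root of F. The test was also run on simulated counts in which few genes were changed, unlike these data, so that run does not vouch for the calls here. CPM used TMM-scaled library sizes, in which 3 counts are 0.0666 to 0.101 CPM, a limit for counting error alone. RPKM used the length of a reference transcript of GENCODE 29 (GRCh38), the APPRIS principal one of median length. Shares of counts were compared by exact permutation in Python 3.11.15. Alternatives were other scalings (library size, RLE), other filters, DESeq2 1.42.0, a replicate block, each library left out, no mitochondrial genes, and GC content with gene span. Transcript length and leaving out overlapping members were added after seeing the data.

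The members and gene lists were chosen with earlier results of these data known. Named with values are fixed core subunits and isoforms, the up to 3 largest called rises and falls per complex and comparison, members called in opposite directions, those called in all comparisons with groups apart, and those sharing over 20% with other genes. From each partner list, genes came from the 2 largest called changes in each direction. NDUFB4 and the other members named outside this were chosen after their values were seen. Promoters are from RefSeq (GRCh38.p14). Some named genes are not reported here, though counts and medians include them.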

Additional observations from a re-analysis of the deposited data

How the results depend on the processing

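Counts of members that passed the test moved by over 1.5 times in several settings. The share of all genes called is given above for the main test alone, so these moves are not read as particular to the members. With CS2 against DMSO, members called higher went from 11 of 77 (14.3%) to 6 of 53 (11.3%) without the members that share over 20% with other genes. That fall in the count comes with a smaller set. The members called higher ran from 5 to 24 when 1 library was left out (5 without DMSO replicate 3, 24 without FB23-2 replicate 2). Members called lower with CS2 went from 5 to 17 with the correction for GC content and gene span and to 11 with that for transcript length, and ran from 4 to 8 with 1 library left out. With FB23-2 against DMSO, members called lower ran from 30 to 42 and higher from 3 to 5 with 1 library left out, and from 30 to 45 and from 3 to 5 over all alternatives. With FB23-2 against CS2 they ran from 37 to 49 lower and from 3 to 7 higher with 1 library left out (3 without CS2 replicate 1, CS2 replicate 2 or FB23-2 replicate 3), and from 30 to 50 and from 3 to 8 over all alternatives. The low of 30 between the compounds came from leaving out the members that share over 20% with other genes. It was 30 of 53 (56.6%), beside 44 of 77 (57.1%) with all tested members. With the GC content and span correction, medians moved to -0.01 (complex I, CS2), -0.08 (complex V, CS2) and -0.08 (complex III, FB23-2 against CS2). The difference in the share of counts between CS2 and DMSO was 0.0332 percentage points for all members and -0.00705 without CS2 replicate 3. It ran from -0.00705 to 0.0551 with 1 library left out, and from -0.00705 to 0.0656 over all alternatives. Of changes called in the test reported or under the alternative, 7 changed sign. Those under the GC content and span correction were NDUFA3 (0.05), NDUFS8 (0.22), NDUFV1 (0.12) and CYC1 (0.10) between the compounds, CYC1 with FB23-2 (0.03) and UQCRC1 with CS2 (-0.22). NDUFS1 with CS2 did so under the transcript length correction (0.26). Another 83 sign changes, in 47 of the 231 changes of single members, were of values called in neither, such as SDHC with CS2 (0.23 with the transcript length correction), and NDUFA11 between the compounds (0.11) and NDUFV1 with CS2 (-0.08) with the GC content and span correction. Over all alternatives the median of all members lay between -0.02 and 0.12 for CS2 and between -0.35 and -0.18 for FB23-2, and the complex IV median for FB23-2 between -0.29 and -0.06. The causes were not tested.

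Deviations from the group mean correlated at -0.03 to 0.021 between same-numbered libraries of DMSO and either compound. Between CS2 and FB23-2 they correlated at 0.167, 0.123 and 0.049 for replicates 1 to 3. Libraries of these compounds with different numbers correlated at -0.138 to 0.02. The labels do not say what equal numbers share, and the reason for this difference was not tested. With the replicate number as a block, CS2 called 13 members higher and 8 lower, FB23-2 called 5 higher and 45 lower, and the direct comparison 6 higher and 50 lower. With 3 libraries per group, members below about 1 CPM, such as COX6B2 and NDUFA7, had errors too wide to place their changes.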
